A study of Mus musculus with 24 samples.

Results

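The genes described here are the DNA methyltransferase genes Dnmt1, Dnmt3a and Dnmt3b, their catalytically inactive relative Dnmt3l, the methylation maintenance factor Uhrf1, the TET dioxygenase genes Tet1, Tet2 and Tet3, and Ctcf. They were chosen by name, 9 genes in all, and each was read from the probe set with the highest mean among those that carry its symbol alone. All 9 were measured on both array platforms, among 19938 genes on the platform with 18 arrays and 18194 genes on the platform with 6 arrays. The RNA came from mouse embryonic stem cells (ES), the neuronal progenitors (NP) made from them, and terminal neurons (TN). On the 18 arrays, the strain was Black Agouti 129 for all cells, and each group held 3 arrays, lettered a, b and c. At ES and at NP the groups were RESTko, in which the transcriptional repressor gene Rest is knocked out, and RESTwt, which is wild type for it. At TN they were RESTko and RESThet, a heterozygous knockout, so the genotype difference at TN has another control than at ES and NP. On the 6 arrays the cells were wildtype of a mixed 129Sv-C57Bl/6 strain, with 2 arrays at each stage. The labels give neither the number of clones behind a genotype nor the deleted part of Rest, and they call the arrays biological replicates without saying that they came from separate cultures, so p-values measure the spread between these arrays.

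Methylation of cytosine in CpG dinucleotides is copied after each round of DNA replication by DNMT1, which UHRF1 brings to the newly made strand. DNMT3A and DNMT3B place methyl groups on unmethylated DNA, and DNMT3L stimulates them. TET enzymes oxidize 5-methylcytosine, the first step of active demethylation. CTCF is a zinc finger protein that binds DNA at insulators and anchors loops together with cohesin. Mouse ES cells are known for high levels of Dnmt3b, Dnmt3l and Tet1, while post-mitotic neurons are known for Dnmt3a and Tet3. REST represses neuronal genes by binding an element called RE1.

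The stage labels were set against marker genes. The mean log2 signal of 9 ES markers lay between 10.53 and 10.84 on the ES arrays, between 6.29 and 7.51 on the NP arrays and between 5.52 and 6.80 on the TN arrays. The mean of 8 neuronal markers ran the other way. On the ES arrays it lay between 5.47 and 5.90, on the NP arrays between 6.87 and 8.0, and on the TN arrays between 10.17 and 10.54. The mean of 8 radial glia markers, listed for NP, was highest on the NP arrays, between 8.52 and 8.88. It lay between 5.85 and 6.19 on the ES arrays and between 7.08 and 7.88 on the TN arrays. Markers of other cells moved with the stages too. The mean of 7 fibroblast and mesoderm markers lay between 5.06 and 5.66 on the ES arrays and between 5.59 and 6.76 on the NP arrays. On the TN arrays it lay between 7.32 and 7.88. The list was divided between NP and TN, with 4 of 7 called higher and 1 lower in RESTko. In the REST-carrying groups (TN RESThet against NP RESTwt), 4 were called higher and 3 lower. Dcn, which encodes decorin, was higher at TN than at NP by 6.05 in RESTko and 4.56 in the REST-carrying groups. The mean of 5 astrocyte and oligodendrocyte markers lay between 4.62 and 4.76 on the ES arrays, 4.04 and 4.22 on the NP arrays and 5.78 and 6.74 on the TN arrays, with all 5 called higher at TN than at NP in both and Gfap, of astrocytes, by 3.28 and 3.29. The mean of 8 endoderm and epithelial markers was highest on the NP arrays, between 6.94 and 7.64, with 5.77 to 6.42 on the ES arrays and 5.04 to 5.61 on the TN arrays. The TN arrays thus do not hold neuronal markers alone, and the part of these other markers' cells in the stage differences of the members was not tested.

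Rest itself averaged 8.61 in RESTko and 8.96 in RESTwt at ES (difference -0.36, SE 0.07, adjusted p = 0.00234), 7.47 in RESTko and 7.48 in RESTwt at NP, and 7.37 in RESTko and 7.03 in RESThet at TN (difference 0.34, adjusted p = 0.0187). A signal for Rest thus remained in every library labelled RESTko and was higher at TN than in the libraries labelled RESThet. Where the probe set lies relative to the deletion is not given in the sources used here, so this signal does not check the genotype labels, and every genotype difference is one between arrays so labelled.

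The members lie on 8 mouse chromosomes, and their positions in the build GRCm38.p6 are Dnmt1 at chr9:20907206-20959888, Dnmt3a at chr12:3801559-3914443, Dnmt3b at chr2:153649411-153687730, Dnmt3l at chr10:78042287-78063622, Uhrf1 at chr17:56303337-56323486, Tet1 at chr10:62804570-62887469, Tet2 at chr3:133463677-133545136, Tet3 at chr6:83362373-83457208 and Ctcf at chr8:105636474-105682922. RefSeq promoter windows of 300 bases in the same build, 250 before a transcript's start and 50 after it, were matched for 9 of 9 members, 16 windows in all. They are not alike in CpG content. The window of Dnmt3b holds 30 CpG and that of Tet2 57, while the first window of Dnmt3l holds 6, against a median of 7 over 32851 windows. Dnmt3b and Dnmt3l, which fell most with Tet1 between ES and NP, are therefore shown side by side, 5′ to 3′ on the plus strand, with CpG in capitals.
Dnmt3b, chr2:153649199-153649498: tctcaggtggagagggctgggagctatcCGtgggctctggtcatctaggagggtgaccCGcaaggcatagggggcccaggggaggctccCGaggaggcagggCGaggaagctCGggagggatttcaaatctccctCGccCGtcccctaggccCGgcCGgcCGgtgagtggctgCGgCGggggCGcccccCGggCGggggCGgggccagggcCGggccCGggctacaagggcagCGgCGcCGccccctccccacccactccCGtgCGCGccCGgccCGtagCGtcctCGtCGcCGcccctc
Dnmt3l, chr10:78042037-78042336: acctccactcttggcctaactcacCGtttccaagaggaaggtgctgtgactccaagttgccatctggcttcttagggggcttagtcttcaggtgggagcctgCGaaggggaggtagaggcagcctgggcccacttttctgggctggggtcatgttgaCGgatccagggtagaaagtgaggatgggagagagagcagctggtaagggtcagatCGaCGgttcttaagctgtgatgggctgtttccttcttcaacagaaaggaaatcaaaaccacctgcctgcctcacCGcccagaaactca

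An E2F-type element, TTTNNCGC on either strand, is a sequence common in promoters of genes of the cell cycle. It occurred in windows of Dnmt1 and Uhrf1 and in no window of the other members, and 5.17% of all windows hold it. Dnmt1 had 3 matches in its first window, a pair of which overlap, and Uhrf1 had 1 match in each of its windows. The other windows of Dnmt1 had none. These genes are shown because both fell between NP and TN with the replication genes. Ctcf, whose window had no match, also fell in that step, with differences of -0.88 in RESTko and -0.99 in the REST-carrying groups. The part of the element in these falls was not tested. The capitals mark the element, and Dnmt1 is written on the minus strand and Uhrf1 on the plus strand.
Dnmt1, chr9:20952574-20952873: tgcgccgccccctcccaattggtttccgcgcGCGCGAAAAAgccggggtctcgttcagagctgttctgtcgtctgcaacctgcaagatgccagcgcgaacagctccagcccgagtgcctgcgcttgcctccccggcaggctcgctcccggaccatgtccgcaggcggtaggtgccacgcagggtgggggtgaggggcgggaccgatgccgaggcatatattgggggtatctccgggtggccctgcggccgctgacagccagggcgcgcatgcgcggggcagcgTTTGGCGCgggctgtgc
Uhrf1, chr17:56304063-56304362: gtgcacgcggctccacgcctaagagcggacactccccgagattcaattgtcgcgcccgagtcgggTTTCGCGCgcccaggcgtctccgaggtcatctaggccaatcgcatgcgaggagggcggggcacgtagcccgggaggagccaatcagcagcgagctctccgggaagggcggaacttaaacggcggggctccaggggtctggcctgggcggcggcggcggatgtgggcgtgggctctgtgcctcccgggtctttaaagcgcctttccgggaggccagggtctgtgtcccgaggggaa
The left part of the RE1 element, TTCAGCACC, which 0.371% of all windows hold, and its right part, GGACAGC, which 6.56% hold, were not found in the 16 windows on either strand. Neither was the CTCF core motif, present in 2.44% of windows. Few of all windows hold any of these sequences, so their absence from 16 windows does not show whether REST or CTCF binds these genes. Sequence outside the windows was not analysed.

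Across the course of differentiation the members split by direction. Between ES and NP, Dnmt3a and Tet3 rose while Dnmt3b, Dnmt3l, Tet1 and Tet2 fell, and between NP and TN, Dnmt1, Uhrf1 and Ctcf fell while Tet1 rose again to a lower level than at ES. In the step from ES to NP, 8 of 9 members were called in RESTko (2 higher and 6 lower, and of all genes 66.0% called, 32.2% higher and 33.9% lower) and 8 of 9 in RESTwt (2 higher and 6 lower, and of all genes 67.1%, 31.0% higher and 36.1% lower), where a call is an adjusted p under 0.05 over all genes. The median difference of the members was -0.38 in RESTko and -0.41 in RESTwt on the log2 scale, beside -0.04 and -0.07 over all genes. In the step to TN, 7 members were called in RESTko (2 higher and 5 lower, and of all genes 71.0%, 41.8% higher and 29.2% lower). From NP RESTwt to TN RESThet, referred to as the REST-carrying cells, 6 were called (2 higher and 4 lower, and of all genes 73.1%, 43.2% higher and 29.9% lower). The medians were -0.88 and -0.19, beside 0.13 and 0.14 over all genes. On the deposited scale, more of the members than of all genes were called between ES and NP, and more of them were lower in both steps. The total share called between NP and TN was near that of the platform. The excess of calls between ES and NP depended on the scale. After quantile normalization, 2 members were higher and 4 lower in each genotype. That share was near that of all genes, with 13101 of 19938 called in RESTko and 13144 in RESTwt. The call of Ctcf was lost in both genotypes, that of Dnmt1 in RESTko and that of Uhrf1 in RESTwt. These shares of 9 chosen genes were not tested against the platform, most of whose genes were called in these steps. Both steps use the NP arrays, so a low or high NP value enters them with opposite signs. Fewer cells of a type and less RNA per cell cannot be told apart in such samples.

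**Figure D1:**
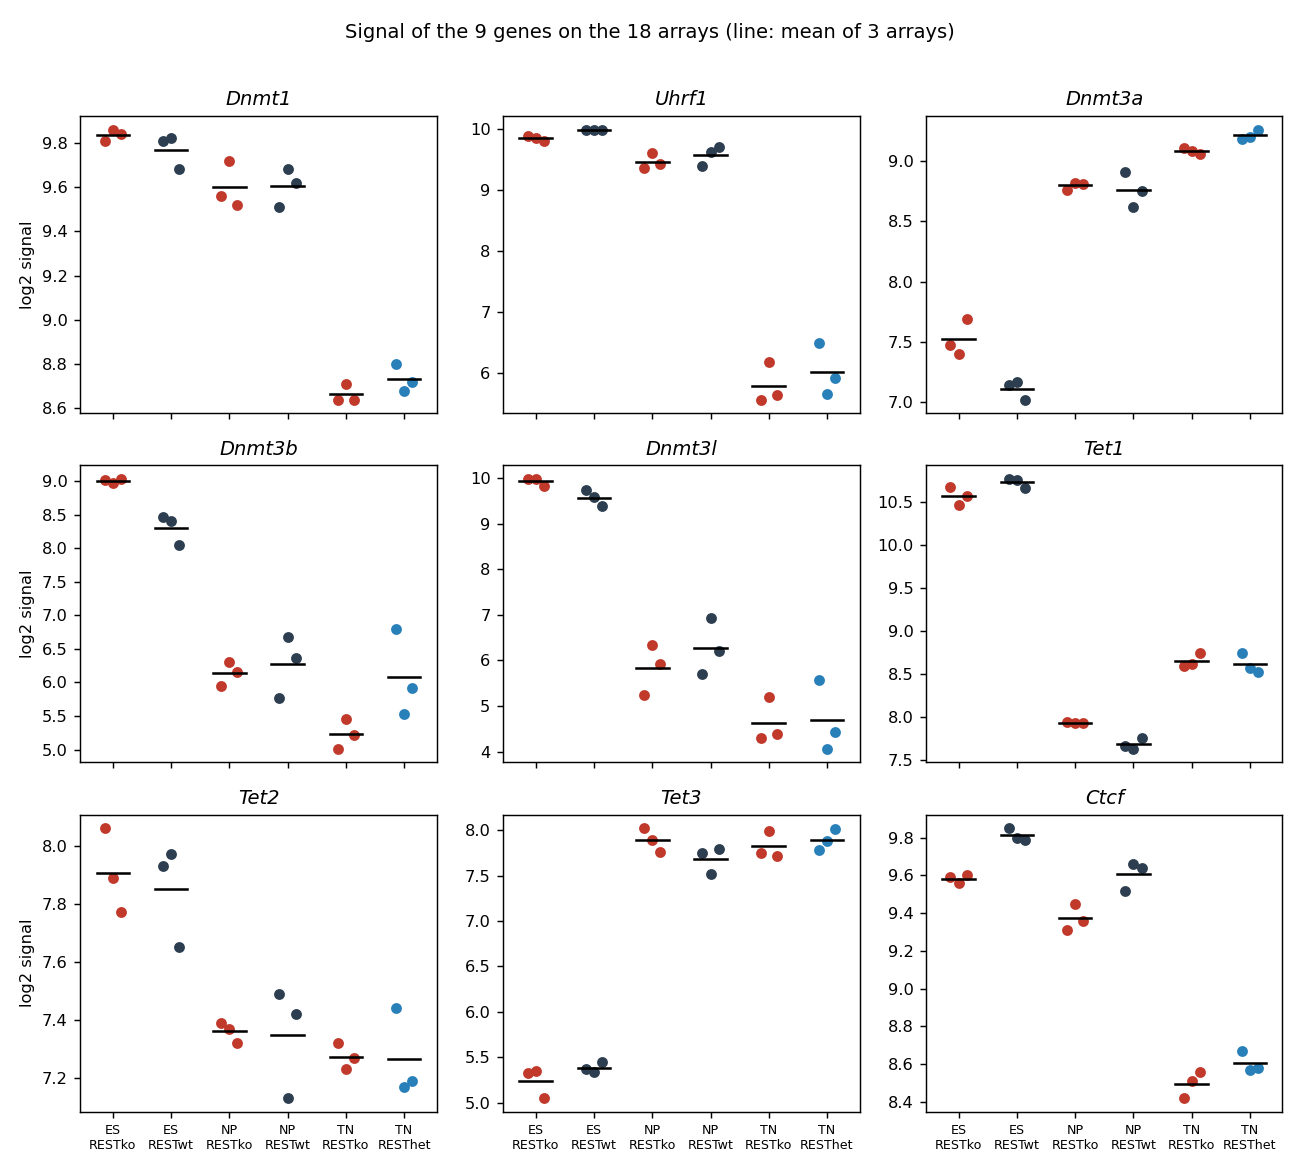
Log2 signal of each of the 9 genes on the 18 arrays, with 1 point per array and a line at the mean of 3 arrays; the vertical axes differ between panels and the groups run ES, NP and TN. Dnmt3b, Dnmt3l and Tet1 are highest at ES, Dnmt3a and Tet3 are lowest there, and Dnmt1, Uhrf1 and Ctcf drop at TN.

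The maintenance pair, Dnmt1 and Uhrf1, was lower on all TN arrays than on all others. Dnmt1 had log2 signals of 9.81, 9.86 and 9.84 in RESTko and 9.81, 9.82 and 9.68 in RESTwt at ES. At NP the values were 9.56, 9.72 and 9.52 in RESTko and 9.51, 9.68 and 9.62 in RESTwt, and at TN they were 8.64, 8.71 and 8.64 in RESTko and 8.80, 8.68 and 8.72 in RESThet. Every TN array was lower than every NP array, and the genotypes overlapped at each stage. Dnmt1 fell between NP and TN, by 0.94 in RESTko (SE 0.07, 1.91-fold, adjusted p = 1.64e-09) and by 0.87 in the REST-carrying cells (SE 0.07, adjusted p = 4.24e-09). Its smaller change between ES and NP, -0.24 in RESTko (adjusted p = 0.00736) and -0.17 in RESTwt (adjusted p = 0.0507), depended on how the arrays were scaled.

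Uhrf1, whose protein recognizes hemimethylated DNA, had the largest drop of the members from NP to TN. Its signal was 9.88, 9.86 and 9.81 in RESTko and 9.98, 9.99 and 9.99 in RESTwt at ES, and 9.36, 9.61 and 9.43 in RESTko and 9.39, 9.62 and 9.71 in RESTwt at NP. At TN it was 5.57, 6.18 and 5.65 in RESTko and 6.50, 5.66 and 5.92 in RESThet. The TN arrays thus lay over 2 log2 units under all other arrays. The difference between TN and NP was -3.67 in RESTko (SE 0.17, 12.7-fold, adjusted p = 1.2e-12) and -3.55 in the REST-carrying cells (11.7-fold, adjusted p = 1.69e-12). Between NP and ES it was -0.38 in RESTko, which missed the threshold (adjusted p = 0.0551), and -0.41 in RESTwt, which passed it (adjusted p = 0.0397). The call in RESTwt was lost without replicate a or b of NP RESTwt (adjusted p = 0.146 and 0.0586) or any 1 of the ES RESTwt arrays (0.0728 to 0.0792), with every probe set (0.0633), with the replicate block (0.0522) and after quantile normalization (-0.16, 0.389), and that in RESTko was gained after centring (-0.73, adjusted p = 4.42e-04).

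Genes of replication and S phase were listed together with the members. Of 21 such genes, 21 fell from NP to TN in RESTko and 21 in the REST-carrying cells, with median differences of -2.49 and -2.40. Rrm2, a subunit of ribonucleotide reductase, differed by -3.63 in RESTko and -3.44 in the REST-carrying cells, and the proliferation marker Mki67 by -3.16 and -2.93. From ES to NP, 15 of the 21 fell in RESTko and 12 in RESTwt, where 1 rose, with medians of -0.57 and -0.47. Hells, a chromatin remodeller needed for DNA methylation and taken from the list of genes that read or silence with it, differed by -1.56 in RESTko and -1.33 in RESTwt from ES to NP, and by -2.34 in RESTko and -2.48 in the REST-carrying cells from NP to TN. The part of cell division in the drop of Dnmt1 and Uhrf1 was not tested.

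The de novo enzymes went opposite ways. Dnmt3a, at its lowest in ES cells, was 7.47, 7.40 and 7.69 in RESTko and 7.14, 7.17 and 7.02 in RESTwt at ES. At NP it was 8.76, 8.82 and 8.81 in RESTko and 8.91, 8.62 and 8.75 in RESTwt, and at TN 9.11, 9.08 and 9.06 in RESTko and 9.18, 9.20 and 9.26 in RESThet. The 3 stages did not overlap. The rise from ES to NP was 1.27 in RESTko (SE 0.08, 2.42-fold, adjusted p = 2.61e-10) and 1.65 in RESTwt (3.14-fold, adjusted p = 8.13e-12). That from NP to TN was 0.29 in RESTko (adjusted p = 0.00516) and 0.45 in the REST-carrying cells (adjusted p = 1.03e-04). The call in RESTko was lost after centring (0.19, adjusted p = 0.0708) and after quantile normalization (0.18, adjusted p = 0.0597).

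Dnmt3b, highest in ES cells, measured 9.02, 8.97 and 9.03 in RESTko and 8.47, 8.40 and 8.04 in RESTwt there. At NP it had dropped to 5.94, 6.30 and 6.16 in RESTko and 5.77, 6.68 and 6.36 in RESTwt. TN values were 5.01, 5.45 and 5.22 in RESTko and 6.80, 5.53 and 5.91 in RESThet, and the RESThet values overlapped those of NP. The difference between NP and ES was -2.87 in RESTko (SE 0.25, 7.32-fold, adjusted p = 9.79e-09) and -2.03 in RESTwt (4.09-fold, adjusted p = 9.74e-07). A further fall of 0.91 from NP to TN was called in RESTko (adjusted p = 0.00342), while in the REST-carrying cells the difference was -0.19 (SE 0.25, adjusted p = 0.493). Single arrays decided the value in the REST-carrying cells: it was -0.55 and called without replicate a of RESThet (adjusted p = 0.0246), 0.08 without replicate b of RESThet (0.771) and 0.01, not called, without replicate b of NP RESTwt. The change of the genotype difference between NP and TN, -0.71, did not pass the test (SE 0.35, adjusted p = 0.309).

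Dnmt3l, which lacks catalytic activity of its own, had 9.98, 9.97 and 9.83 in RESTko and 9.74, 9.58 and 9.39 in RESTwt at ES. It had 5.25, 6.34 and 5.93 in RESTko and 5.70, 6.92 and 6.21 in RESTwt at NP, and 4.29, 5.19 and 4.39 in RESTko and 5.58, 4.06 and 4.43 in RESThet at TN. Its SDs at NP and TN, 0.49 to 0.79 (n = 3 each), were the highest of the 9 members in each of these groups. The difference between NP and ES was -4.08 in RESTko (SE 0.35, 17.0-fold, adjusted p = 9.64e-09) and -3.29 in RESTwt (9.79-fold, adjusted p = 1.84e-07). That between TN and NP was -1.22 in RESTko (adjusted p = 0.00501) and -1.59 in the REST-carrying cells (adjusted p = 5.83e-04).

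Within the NP and TN groups, the arrays with more Dnmt3b and Dnmt3l were also those with more signal of ES markers. The mean of the 9 ES markers, 9 of 9 measured, was 6.29, 7.21 and 7.16 in RESTko and 6.73, 7.51 and 7.42 in RESTwt at NP, and 5.72, 6.72 and 6.12 in RESTko and 6.80, 5.52 and 6.21 in RESThet at TN. The order of the 3 arrays by this mean was the order by Dnmt3b and by Dnmt3l in each of the 4 groups. It was also the order by Uhrf1 in NP RESTko, TN RESTko and TN RESThet, but not in NP RESTwt. Summarized log2 signals do not reach 0 for silent genes and no floor was set, so a signal alone does not show expression. The lowest group mean was 3.81 for Zfp42 in TN RESThet, near the lower quartile of the TN arrays, 3.71 to 3.78. Pou5f1, which encodes OCT4, averaged 6.16 in RESTko and 6.12 in RESThet at TN. The part of these markers' cells in the Dnmt3b, Dnmt3l and Uhrf1 values at NP and TN was not tested.

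Genes of the germ line that promoter methylation is known to silence were listed for comparison. From ES to NP, 12 of 16 measured fell and 2 rose in RESTko, and 11 fell and 1 rose in RESTwt, with a median of -0.73 in both. Sycp3, of the meiotic chromosome axis, differed by -3.05 in RESTko and -2.85 in RESTwt, and the germ cell helicase gene Ddx4 by -2.61 and -2.23. Tdrkh, a piRNA pathway gene, rose by 3.79 in RESTko and 3.65 in RESTwt. The list was divided in the next step, with 4 higher and 6 lower in RESTko and 3 higher and 6 lower in the REST-carrying cells.

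Among the TET genes, Tet1 was the ES form and Tet3 the one that rose. Tet1 measured 10.68, 10.47 and 10.57 in RESTko and 10.77, 10.76 and 10.67 in RESTwt at ES, 7.94, 7.93 and 7.93 in RESTko and 7.66, 7.63 and 7.76 in RESTwt at NP, and 8.60, 8.62 and 8.75 in RESTko and 8.75, 8.57 and 8.52 in RESThet at TN. Its lowest point was NP and no stage overlapped another. It fell by 2.64 in RESTko (SE 0.08, 6.24-fold, adjusted p = 4.89e-15) and by 3.05 in RESTwt (8.28-fold, adjusted p = 9.4e-16) from ES to NP. From NP to TN it rose by 0.72 in RESTko (adjusted p = 1.36e-07) and by 0.93 in the REST-carrying cells (adjusted p = 3.75e-09). The other 2 probe sets of Tet1 gave differences of -2.85 to -2.52 in the first step and of 0.45 to 0.85 in the second.

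Tet2 stood between 7.13 and 8.06 on all 18 arrays. It was 8.06, 7.89 and 7.77 in RESTko and 7.93, 7.97 and 7.65 in RESTwt at ES, and averaged 7.36 ± 0.04 in RESTko and 7.34 ± 0.19 in RESTwt at NP and 7.27 ± 0.04 in RESTko and 7.27 ± 0.15 in RESThet at TN (SD, n = 3 each). It fell by 0.54 in RESTko (adjusted p = 2.29e-04) and by 0.50 in RESTwt (adjusted p = 4.79e-04) from ES to NP. Its differences from NP to TN, -0.09 in RESTko and -0.07 in the REST-carrying cells, did not pass the test (adjusted p = 0.468 and 0.544). In the REST-carrying cells the difference was -0.25 and called after centring (adjusted p = 0.0433), and -0.27 and called after quantile normalization (adjusted p = 0.028).

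Tet3, known as the oxidase of the zygote and of neural tissue, had 5.33, 5.35 and 5.05 in RESTko and 5.37, 5.34 and 5.45 in RESTwt at ES. At NP it had 8.02, 7.89 and 7.76 in RESTko and 7.75, 7.52 and 7.79 in RESTwt, and at TN 7.75, 7.99 and 7.72 in RESTko and 7.78, 7.88 and 8.01 in RESThet. All NP and TN arrays lay more than 2 log2 units above all ES arrays. The rise from ES to NP was 2.65 in RESTko (SE 0.11, 6.27-fold, adjusted p = 2.51e-13) and 2.30 in RESTwt (4.93-fold, adjusted p = 1.83e-12). A second probe set of Tet3 rose by 3.08 in RESTko and 2.88 in RESTwt. In the step to TN the differences were -0.07 in RESTko (adjusted p = 0.563) and 0.21 in the REST-carrying cells (adjusted p = 0.0842).

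Genes for active demethylation and base excision repair moved both ways. From ES to NP, 8 of 20 rose and 9 fell in RESTko, and likewise 8 and 9 in RESTwt. Smug1, a uracil DNA glycosylase, rose by 3.84 in RESTko and 3.31 in RESTwt, and the cytidine deaminase gene Apobec1 differed by -2.44 and -2.00. In the next step, 13 fell and 4 rose in RESTko, and 14 fell and 4 rose in the REST-carrying cells. The glycosylase gene Neil3 differed by -2.87 in RESTko and -3.20 in the REST-carrying cells. Methyl donor enzymes fell with fewer exceptions. All 7 measured of 11 listed fell from ES to NP in both genotypes, among them Mtrr, methionine synthase reductase, with -1.69 in RESTko and -1.64 in RESTwt. Of the 7, 6 fell from NP to TN in both, and 1 rose in the REST-carrying cells. Genes that read methylation or silence with it were split, with 9 higher and 7 lower of 16 in RESTko and 8 and 7 in RESTwt from ES to NP, and 4 higher and 10 lower from NP to TN in both. Zfp57, which guards imprints, differed by -1.72 in RESTko and -2.04 in RESTwt in the first step and rose by 1.56 in RESTko and 1.73 in the REST-carrying cells in the second.

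Ctcf measured 9.59, 9.56 and 9.60 in RESTko and 9.85, 9.80 and 9.79 in RESTwt at ES, 9.31, 9.45 and 9.36 in RESTko and 9.52, 9.66 and 9.64 in RESTwt at NP, and 8.42, 8.51 and 8.56 in RESTko and 8.67, 8.57 and 8.58 in RESThet at TN. The knockout arrays were the lower ones at each stage, without overlap. Between NP and TN it fell by 0.88 in RESTko (SE 0.07, 1.84-fold, adjusted p = 1.43e-09) and by 0.99 in the REST-carrying cells (1.99-fold, adjusted p = 2.13e-10). The latter compares RESTwt with RESThet, and genes of the chromosome of Ctcf differed between genotypes at NP, as given below. Over 15 alternatives the difference in the REST-carrying cells lay between -1.23 and -0.63 and kept its call. The difference between NP and ES was -0.21 in RESTko (adjusted p = 0.0108) and -0.21 in RESTwt (adjusted p = 0.0106). Of 20 cohesin genes and CTCF partners, 13 fell and 6 rose in RESTko and 13 fell and 5 rose in RESTwt from ES to NP, and 15 fell and 3 rose from NP to TN in both. Esco2, an acetyltransferase of cohesin, differed by -1.92 in RESTko and -1.84 in RESTwt in the first step, and by -3.04 in RESTko and -2.69 in the REST-carrying cells in the second.

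The scale of the arrays bears on the small differences between NP and ES. Centring each array on its median moved the median of all genes for NP minus ES to -0.39 in RESTko and -0.40 in RESTwt, against -0.04 and -0.07 on the deposited scale. It moved the share of higher genes among those called to 24.7% in RESTko and 24.2% in RESTwt, against 48.7% and 46.2%. For TN minus NP the share of higher calls was 50.6% in RESTko and 45.4% in the REST-carrying cells after centring, and 45.3% and 44.1% after quantile normalization, against 58.9% and 59.1% as deposited. Dnmt1 stood at -0.58 in RESTko and -0.49 in RESTwt for NP minus ES after centring, and at -0.01 and 0.07 after quantile normalization. Ctcf stood at -0.55 and -0.54 after centring and at -0.02 and 0.04 after quantile normalization. Uhrf1 stood at -0.73 and -0.74, and at -0.16 in both genotypes after quantile normalization. No direction is therefore given for Dnmt1 and Ctcf in the step from ES to NP. The directions of Dnmt3a, Dnmt3b, Dnmt3l, Tet1, Tet2 and Tet3 in that step, and of Dnmt1, Uhrf1 and Ctcf from NP to TN, were the same and called on all 3 scales. This does not hold for the calls of Dnmt3a in RESTko and Tet2 in the REST-carrying cells from NP to TN, given above.

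**Figure D2:**
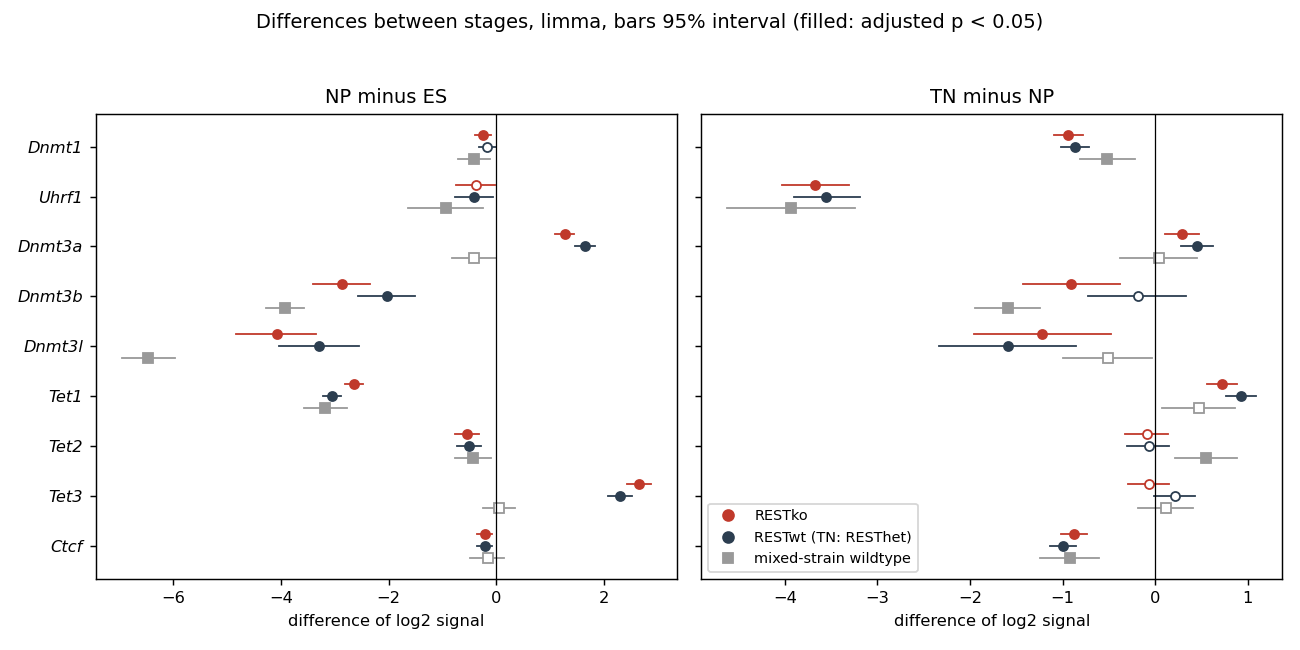
Differences of log2 signal between stages with 95% intervals of limma, in RESTko (red circles), in REST-carrying cells (dark circles) and in the mixed-strain wildtype of the other platform (grey squares); filled symbols have an adjusted p under 0.05. Dnmt3b, Dnmt3l and Tet1 lie far left in NP minus ES, and Uhrf1 lies far left in TN minus NP. In NP minus ES, Dnmt3a and Tet3 are filled and to the right on the 18 arrays, while in the mixed-strain course neither is filled, with the probe sets used.

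The mixed-strain wildtype cells, on another platform and with 2 arrays a stage, gave falls of the same members that fell most on the 18 arrays. From ES to NP, 6 of 9 members fell (38.9% of all genes called, 19.9% higher and 19.0% lower), and from NP to TN 1 rose and 4 fell (50.8% called, 21.7% higher and 29.1% lower). Dnmt3b measured 9.65 and 9.66 at ES, 5.76 and 5.70 at NP, and 3.93 and 4.33 at TN. Dnmt3l measured 10.22 and 10.49 at ES, 4.0 and 3.79 at NP, and 3.07 and 3.70 at TN, a fall of 6.46 from ES to NP (SE 0.21, 88.0-fold, adjusted p = 1.63e-07). All stages of Dnmt3b were apart, and its falls were 3.93 and 1.59 in turn (adjusted p = 3.59e-07 and 2.88e-05). Uhrf1 had 10.21 and 10.16 at ES, 9.16 and 9.33 at NP, and 5.88 and 4.75 at TN. It fell by 0.94 (adjusted p = 0.037) and then by 3.93 (SE 0.30, 15.2-fold, adjusted p = 6.33e-06). Tet1 had 10.28 and 9.89 at ES, 6.89 and 6.93 at NP, and 7.54 and 7.21 at TN, and its fall of 3.18 was called (adjusted p = 1.83e-06) while the later difference of 0.47 was at the threshold (adjusted p = 0.05).

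Dnmt1 in this course had 9.91 and 9.74 at ES, 9.39 and 9.43 at NP, and 8.86 and 8.92 at TN, falling by 0.41 (adjusted p = 0.0322) and 0.52 (adjusted p = 0.00813). Ctcf had 8.89 and 8.91 at ES, 8.59 and 8.87 at NP, and 7.84 and 7.78 at TN, and fell in the second step by 0.92 (adjusted p = 4.52e-04). Tet2 had 7.90 and 7.69 at ES, 7.43 and 7.30 at NP, and 8.03 and 7.80 at TN. Its rise of 0.55 from NP to TN (adjusted p = 0.011) was not seen with a second probe set, which gave -0.01, and its call was lost without replicate b of NP or a of TN (adjusted p = 0.0678 and 0.0647). The calls for Dnmt1, Uhrf1 and Tet2 in the first step were each lost when any 1 of the 4 ES and NP arrays was left out, which took the count of falls to 3. After centring, 38.5% of all called genes were higher in NP minus ES, against 51.2% as deposited.

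Neither gene that rose on the 18 arrays was called higher here. Tet3, with 1 probe set on this platform, was dim at each stage, with 3.49 and 3.49 at ES, 3.59 and 3.51 at NP, and 3.57 and 3.75 at TN. Dnmt3a had 5 probe sets that disagreed. The one with the highest mean, 1423066_at, had 8.73 and 8.42 at ES, 7.96 and 8.36 at NP, and 8.08 and 8.32 at TN, and no step of it was called. By contrast, 1423063_at averaged 6.49, 7.50 and 9.11 over ES, NP and TN, rising by 1.01 and then 1.62 (adjusted p = 6.4e-04 and 1.6e-05 over all probe sets), and 1460324_at averaged 5.49, 7.13 and 8.97. Another pattern was that of 1423064_at, which averaged 7.68, 7.41 and 4.65 and fell by 2.76 from NP to TN (adjusted p = 2.3e-06). The mean over the 5 probe sets rose by 0.42 from ES to NP, against -0.41 for the one used. Dnmt3a is known to be transcribed from more than 1 promoter, giving a long and a short protein, and RefSeq lists windows at chr12:3806730-3807029 and chr12:3891494-3891793. Where each probe set lies in these transcripts was not analysed here, so no direction is given for Dnmt3a in the mixed-strain course.

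**Figure D3:**
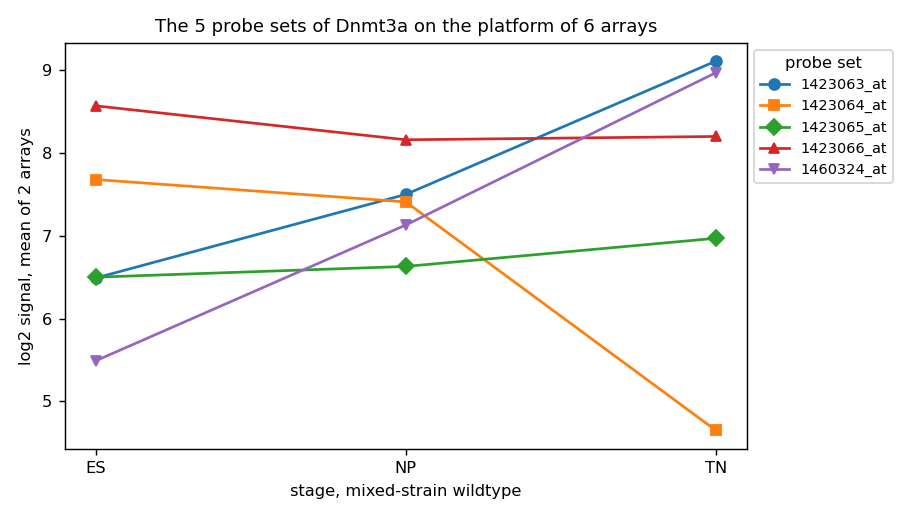
Mean log2 signal of 2 arrays for each of the 5 probe sets of Dnmt3a at ES, NP and TN in the mixed-strain wildtype cells. Probe sets 1423063_at and 1460324_at rise to 9.11 and 8.97 at TN, 1423064_at falls to 4.65, and 1423066_at, the one with the highest mean, stays between 8.16 and 8.57.

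Few members were called between genotypes. At ES, 2 of 9 were called, Dnmt3a higher and Ctcf lower in RESTko than in RESTwt, where 9.24% of all genes were called (5.19% higher and 4.05% lower). At NP, 1 of 9 was called, Ctcf, lower in RESTko (8.03% of all genes called, 3.71% lower). At TN, 0 of 9 were called by limma between RESTko and RESThet (1.16% of all genes). There, 1 member had an unadjusted p under 0.05, as did 2342 of all 19938 genes. The median difference of the members was 0.06 at ES, 0.00 at NP and -0.07 at TN, beside -0.03, 0.01 and -0.02 over all genes. The arrays of the genotypes did not overlap for 5 members at ES, 2 at NP and 3 at TN, and over all genes for 29.4%, 21.9% and 16.0%. The 3 comparisons share no arrays.

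Dnmt3a at ES was 7.47, 7.40 and 7.69 in RESTko against 7.14, 7.17 and 7.02 in RESTwt, with the lowest knockout array above the highest wild type one. The difference was 0.41 (SE 0.08, 95% interval 0.23 to 0.59, 1.33-fold, adjusted p = 0.00375). It was 0.04 at NP (SE 0.08, adjusted p = 0.895) and -0.13 at TN (SE 0.08, adjusted p = 0.619). The change of the difference between ES and NP, -0.38, did not pass the test (SE 0.12, adjusted p = 0.085) but did without replicate b of NP RESTwt (-0.45, adjusted p = 0.0442). That between NP and TN did not pass (-0.16, adjusted p = 0.535). The marker lists also differed between the genotypes at ES. The mean of the 9 ES markers was 10.53 to 10.63 in RESTko and 10.78 to 10.84 in RESTwt, with 2 of 9 called lower, and that of the 8 neuronal markers 5.80 to 5.90 in RESTko and 5.47 to 5.51 in RESTwt, with 3 of 8 called higher. Of the 2 ES markers, Fgf4 (-0.60) and Zfp42 (-0.99), Zfp42 lies on chromosome 8, where the median gene was also lower in RESTko, as given with Ctcf. The mean of the endoderm and epithelial markers was 6.20 to 6.42 in RESTko and 5.77 to 6.00 in RESTwt, with the keratin genes Krt8 (1.60) and Krt18 (1.55) called higher. That of the fibroblast and mesoderm markers was 5.22 to 5.66 in RESTko and 5.06 to 5.11 in RESTwt, with Tagln (1.49) and Acta2 (1.19) called higher, and that of the 8 radial glia markers 6.04 to 6.19 in RESTko and 5.85 to 5.96 in RESTwt, with 2 called higher. The median differences within these lists were smaller than those of the called genes. They were 0.10 for the endoderm and epithelial markers and 0.07 for the fibroblast and mesoderm markers. That of the neuronal markers was 0.22, while the neuronal gene Snap25 differed by 2.13. A shift of a list mean here thus need not be one of the whole list. The part of these differences in the Dnmt3a and Dnmt3b values was not tested.

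Dnmt3b at ES lay between 8.97 and 9.03 in RESTko and between 8.04 and 8.47 in RESTwt, so that the groups were apart, yet the difference of 0.70 (SE 0.25, interval 0.18 to 1.22, 1.63-fold) missed the threshold (adjusted p = 0.093). Its standard error is shared with the NP and TN groups, where the arrays vary more. Fitted on the ES arrays alone the SE was 0.11 and the adjusted p 0.0059. At TN the sign was the other way, with 5.01, 5.45 and 5.22 in RESTko against 6.80, 5.53 and 5.91 in RESThet, a difference of -0.85 (SE 0.25, unadjusted p = 0.00317, adjusted p = 0.129). Without replicate b of RESThet it was -1.13 and called (adjusted p = 0.0313), and without replicate a of RESThet, the array highest in ES markers, it was -0.49 (adjusted p = 0.37). Dnmt3l differed by 0.36 at ES, -0.44 at NP and -0.07 at TN (SE 0.35 each), none of them called.

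Tet1 at NP was 7.94, 7.93 and 7.93 in RESTko against 7.66, 7.63 and 7.76 in RESTwt, a difference of 0.25 (SE 0.08, interval 0.09 to 0.41) with an adjusted p of 0.0535. At ES the difference was -0.16 (SE 0.08, adjusted p = 0.247) with overlapping arrays, and at TN 0.04 (SE 0.08, adjusted p = 0.905). At NP the mean of 8 neuronal markers was 7.63 to 8.0 in RESTko and 6.87 to 7.58 in RESTwt, with 4 of 8 called higher, and that of 7 fibroblast and mesoderm markers 5.59 to 6.18 in RESTko and 6.37 to 6.76 in RESTwt, with 4 of 7 called lower. Their part in the Tet1 difference was not tested. The change between ES and NP, 0.41 (SE 0.11), was the 1 interaction of a member that was called (adjusted p = 0.0371, with 4.87% of all genes called, 2.31% higher). It lost its call without any 1 of 9 of the 12 arrays (adjusted p up to 0.102), and the other 2 probe sets gave 0.15 and 0.30, neither called. Between NP and TN, 0 of 9 members were called by limma for a change of the genotype difference, with 3.91% of all genes called. An unadjusted p under 0.05 for this change was reached by 0 members and by 3488 of all 19938 genes. After centring, 54.4% of the called genes in that interaction were higher, against 35.9% as deposited, and in the comparison at TN 51.5%, against 30.7%.

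The remaining differences between genotypes were small. Dnmt1 differed by 0.07 at ES (interval -0.08 to 0.22), by 0.00 at NP (-0.16 to 0.15) and by -0.07 at TN (-0.22 to 0.08). Uhrf1 differed by -0.13, -0.11 and -0.23 at ES, NP and TN (SE 0.17 each), Tet2 by 0.06, 0.02 and 0.00 (SE 0.11 each) and Tet3 by -0.14, 0.21 and -0.07 (SE 0.11 each). At ES, Uhrf1 lay at 9.81 to 9.88 in RESTko and 9.98 to 9.99 in RESTwt, apart but not called (adjusted p = 0.724).

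**Figure D4:**
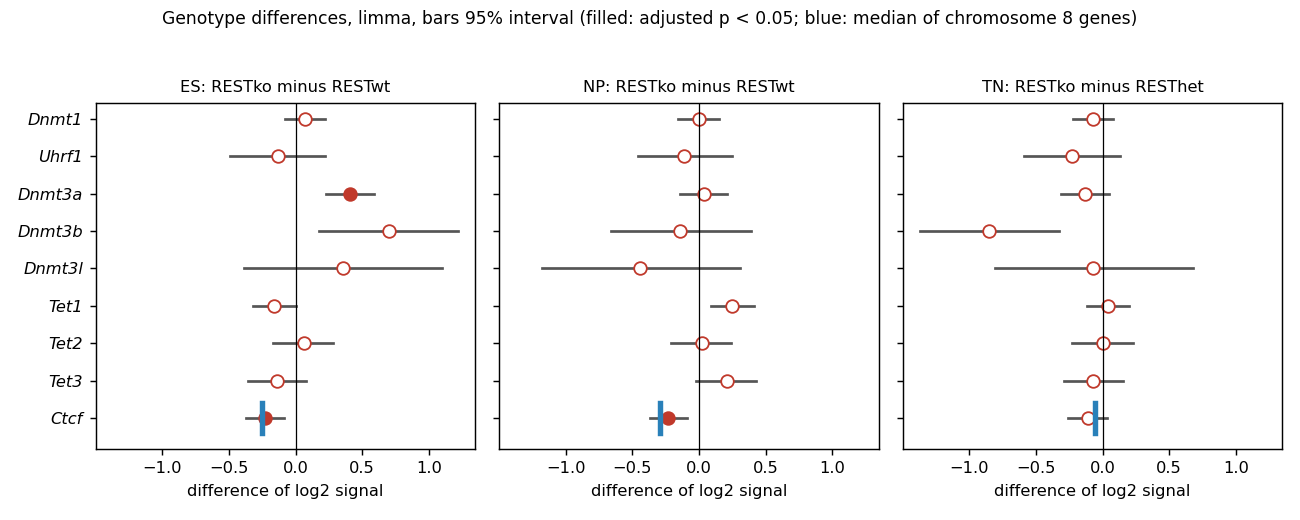
Differences of log2 signal between genotypes with 95% intervals of limma, RESTko minus RESTwt at ES and NP and RESTko minus RESThet at TN; filled circles have an adjusted p under 0.05, and the blue bars beside Ctcf mark the median of chromosome 8 genes. Dnmt3a at ES and Ctcf at ES and NP are filled, and Ctcf lies on or near the blue bar at each stage.

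Ctcf was lower in RESTko by 0.23 at ES (SE 0.07, interval -0.37 to -0.09, 1.17-fold, adjusted p = 0.0368) and by 0.23 at NP (SE 0.07, adjusted p = 0.0406), and differed by -0.11 at TN (SE 0.07, adjusted p = 0.561). The call at ES was lost without any 1 of the 6 ES arrays (adjusted p = 0.0747 to 0.106), and that at NP without replicate a or c of RESTko or b or c of RESTwt (0.103 to 0.182). Its chromosome moved in the same way. Among the 567 genes of chromosome 8 in the brighter part of the platform (mean above the median), the median difference was -0.25 at ES, -0.29 at NP and -0.06 at TN, and 40.9%, 48.0% and 0.882% of them were called lower in RESTko. At ES, 54.1% of these genes had a lower difference than Ctcf, at NP 60.8% and at TN 28.9%. No other autosome had a median beyond 0.08 in either direction at any stage. With the chromosome 8 genes of each array centred on the other autosomes, an alternative chosen after seeing the data, Ctcf differed by 0.12 at ES (adjusted p = 0.345) and by 0.12 at NP (adjusted p = 0.397). The lower signal of Ctcf in RESTko was thus one that the genes of its chromosome shared, and a cause of that shift was not tested.

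**Figure D5:**
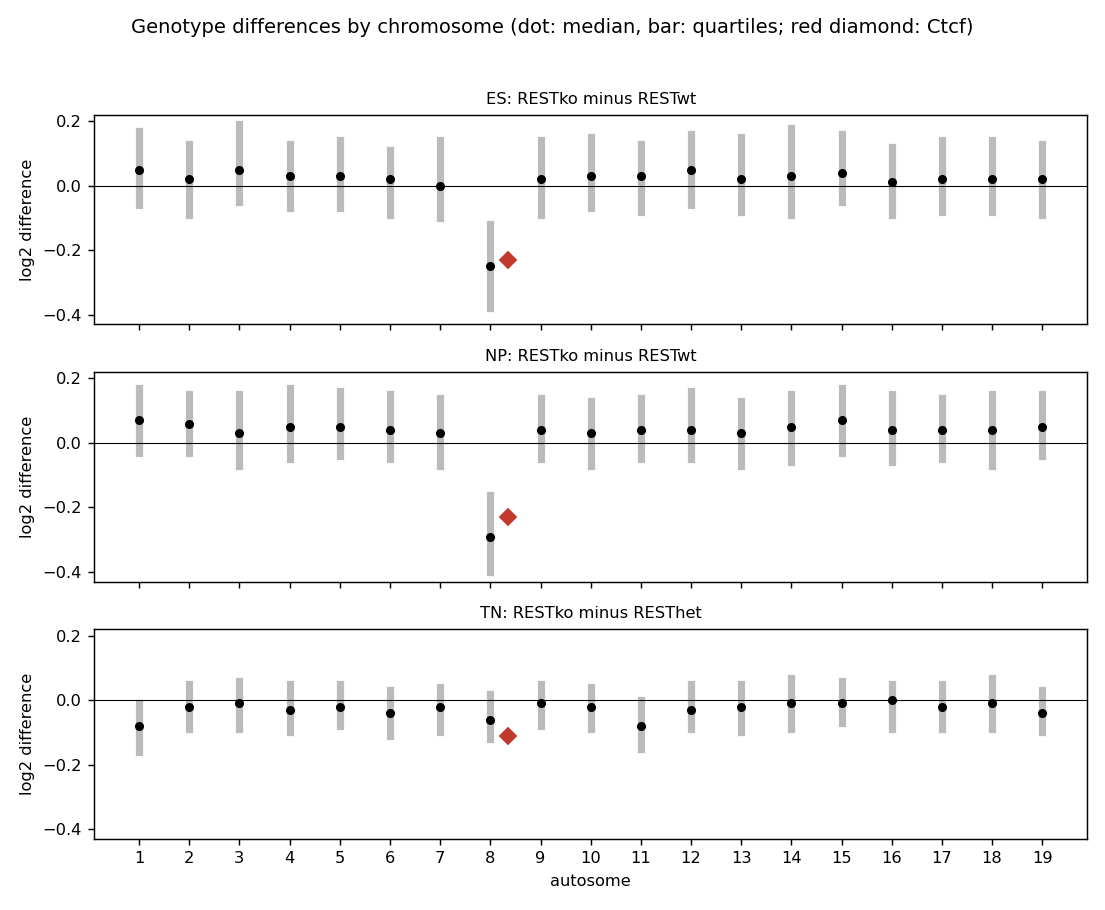
Genotype differences of log2 signal by autosome at ES, NP and TN, for genes in the brighter part of the platform; dots are medians, bars run between the quartiles, and the red diamond is Ctcf. The median of chromosome 8 is -0.25 at ES and -0.29 at NP and -0.06 at TN, and Ctcf is close to it.

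The related gene lists were also compared between genotypes. Of all genes, 9.24% were called at ES (5.19% higher and 4.05% lower), 8.03% at NP (3.71% lower) and 1.16% at TN. The lists were not tested against these shares. Of the 20 cohesin genes and CTCF partners, 3 were lower in RESTko at ES, namely the meiotic cohesin genes Smc1b (-2.03, SE 0.17, adjusted p = 4.89e-07) and Stag3 (-1.03, SE 0.14) and the loader gene Mau2 (-0.55, SE 0.07). At NP, 4 were lower, with Smc1b at -0.58, the acetyltransferase gene Esco1 at -0.53, Stag3 at -0.49 and Mau2 at -0.26, and at TN 1 was lower, Esco1 (-0.89, SE 0.12, adjusted p = 6.34e-04). Mau2 lies on chromosome 8, whereas Smc1b lies on chromosome 15 and Stag3 on chromosome 5. Uhrf2, the paralogue of Uhrf1, was the 1 of 16 genes reading or silencing with methylation called at ES (-0.43, SE 0.09, adjusted p = 0.00441), and 0 of 16 were called at NP and TN. Of the demethylation and repair genes, Neil3, on chromosome 8, was lower at ES (-0.77), as was Idh2 (-0.34), which makes 2-oxoglutarate, the cosubstrate of the TET enzymes, and Apobec1 was higher (0.39). At NP, Idh1 (0.33) and Lig3, a DNA ligase (0.25), were higher. Dazl (-0.77) and Mael (-0.64) were lower at ES among 16 germ line genes, 0 were called at NP and TN, and of 21 replication genes Tyms alone was called, at NP (-0.38, adjusted p = 0.0463). None of the 7 methyl donor genes was called at any stage.

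The genes most like each member over the 18 arrays, by Pearson's r among 17088 genes, are given as a description, since the points share stages and a scale. Uhrf1 was most like Plk1, Cenpa and Kif4, which act in mitosis (r = 0.998 each), and Dnmt1 like Ubxn1, Cnbp and the cell cycle phosphatase gene Cdc25a (0.998 to 0.996). Dnmt3a was closest to Clip3, Dpysl2 and Dync2h1 (0.995 to 0.993), and Tet3 to Yaf2, Tfap2a and Zeb2 (0.996 each). Dnmt3b went with Ddx4, Rbpms2 and the ES gene Utf1 (0.985 to 0.984), Dnmt3l with Trim6, Gart and Hspa14 (0.995 to 0.994), and Tet1 with Mkrn1, Slco4c1 and Itpk1 (0.995 to 0.991). Tet2 had the loosest partners, Dusp1, Ncoa3 and Nampt (0.945 to 0.942). The 3 genes closest to Ctcf, Rfwd3, Gatad2a and Tfdp1 (0.997 to 0.993), all lie on chromosome 8. High likeness was common, with 291 genes at r of 0.9 or more to Tet2 and 822 to 1900 genes to the other members.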

How the data were processed

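Total RNA of 24 samples, 18 on 1 Affymetrix platform and 6 on another, was measured on arrays. The values are log2 probe-set signals as the authors deposited them. The software oligo 1.14.0 is named per the submitters' processing notes, while no source used here names the background correction, normalization or summarization. No further scaling was applied, and the platforms were never combined. The number of arrays sets the precision. On the 18 arrays array medians lay between 5.02 and 5.07 (ES), 5.19 and 5.26 (NP) and 5.41 and 5.49 (TN), and replicates correlated at r = 0.992 to 0.998. On the 6 arrays it was 3.83 to 3.95.

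Gene symbols came from the platform annotation, updated to GRCm38.p6. Of 35556 probe sets on the larger platform 21789 carried 1 symbol, 1621 several and 12146 none, and of 45101 on the other 34958, 932 and 9211. A gene was read from its single-symbol probe set with the highest mean. A linear model of group means was fitted across all genes of a platform by lmFit and eBayes of limma 3.58.1 under R 4.3.3 (two-sided, all groups sharing the spread), with Benjamini-Hochberg adjustment over all genes of a comparison and calls at an adjusted p under 0.05. Levels of different probe sets were not compared. The text names all 9 members, Rest, up to 4 called genes per list and comparison with the largest change (or up to 2 where none was called), of which a part is printed, and the 3 genes most like each member. The members, lists and tests were chosen with earlier results of these data known, and the lists are not independent evidence.

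The fit was tested on simulated data with 18 arrays of the ES comparison (19938 genes), where it called 70.2%, 95.8% and 100% of changes of 0.5, 1 and 2 log2 units, and with 6 arrays of the mixed-strain step from ES to NP (18194 genes), where it called 1.47%, 31.2% and 91.2%. Smaller changes were thus recovered less often on the 6 simulated arrays. Few genes were changed there, 68, 64 and 68 by size, while 38.9% of all genes were called in the same step of the data. The adjustment depends on that share, so these recoveries do not give the share missed in the data. Alternatives were the replicate letter as a block, fits on the compared groups alone, centring, quantile normalization, leaving the dimmest 30% out, averaging a gene's probe sets, testing all probe sets, array weights, and each array left out. Another background correction could not be run on summarized values. No label ties a replicate letter to a batch. Titles of the 18 arrays begin with 1 at ES and NP and with 2 at TN, and those of the 6 arrays begin with 2. What this number means is not given, and on the 18 arrays it cannot be told apart from the step from NP to TN.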

Additional observations from a re-analysis of the deposited data

Results flagged for a closer look

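Tet1 was the 1 member for which the genotype difference changed between stages by a test of that change. RESTko minus RESTwt was 0.25 at NP and -0.16 at ES, and the change was 0.41 (SE 0.11, adjusted p = 0.0371 by limma). The call was lost after centring (0.39, adjusted p = 0.0558), with all probe sets adjusted together (adjusted p = 0.0606), with the mean over the gene's probe sets (0.29, adjusted p = 0.171), and without any 1 of 9 of the 12 arrays involved (0.36 to 0.41, adjusted p = 0.0583 to 0.102). The other 2 probe sets of Tet1 gave changes of 0.15 and 0.30 (adjusted p = 0.674 and 0.22 over all probe sets). All 3 probe sets had a positive value.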

How the results depend on the processing

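Of 891 values of single members under settings other than leaving out an array, 832 kept direction and side of the threshold, 18 lost and 19 gained a call, 18 uncalled values changed sign, and 4 reversed where one of the values was called. The reversals were Ctcf for NP minus ES in RESTwt under quantile normalization (0.04), Ctcf between genotypes with chromosome 8 centred, added after seeing the data (0.12 at ES and 0.12 at NP), and Dnmt3a for NP minus ES in the mixed strain with the mean over probe sets (0.42). Of 666 values with 1 array left out, 582 were kept, 40 lost and 8 gained a call, 36 uncalled values changed sign and 0 reversed. Dnmt3a between genotypes at ES kept its call in all 15 alternatives (0.32 to 0.48, adjusted p = 0.00106 to 0.0263). The count of members called at ES, 2 as reported, was 1 with the replicate block, 1 with chromosome 8 centred, and 1 to 1 with any 1 ES array left out, Ctcf being the call lost (adjusted p = 0.0747 to 0.106). Dnmt3b was called there on the ES arrays alone (0.0059) and with array weights (0.024), and Ctcf was not called on the ES arrays alone (0.0573). At NP the count of 1 was 0 with the replicate block, 0 on the compared groups alone, 0 with every probe set, 0 with chromosome 8 centred, 2 without the dimmest genes, and 0 to 1 with an array left out. The calls of Ctcf at NP were lost without replicate a or c of RESTko or b or c of RESTwt (adjusted p = 0.103 to 0.182). The count for NP minus ES of the genotype difference, 1, was 0 after centring, 0 with the mean over probe sets, 0 with every probe set and 0 to 1 with an array left out. That 1 is Tet1, except without replicate b of NP RESTwt, where Tet1 lost its call (0.0868) and Dnmt3a gained one (-0.45, adjusted p = 0.0442). At TN the count of 0 was 0 to 1, with the 1 being Dnmt3b without replicate b of RESThet. The mixed-strain count of 6 was 3 to 3 without any 1 ES or NP array. The replicate letters were not treated as pairs in the main fit. Deviations of same-lettered arrays correlated between groups at -0.26 to 0.40 over 45 pairs on the 18 arrays, with 10 above 0.1. On the 6 arrays they correlated at 0.03 to 0.09 over 6 pairs. The highest values were those between NP RESTko and NP RESTwt, 0.40 for a and 0.31 for b, with 0.01 for c. Whether the letters pair the arrays at NP is therefore not settled, and the fit with the replicate block is given above. Arrays were closest to their own letter in 14 of the 45 pairs and in 6 of the 6. With the replicate block, Uhrf1 for NP minus ES in RESTwt also lost its call (adjusted p = 0.0522). Between NP and TN, Dnmt3a in RESTko lost its call under centring (0.19) and quantile normalization (0.18), and Tet2 in REST-carrying cells gained one under both (-0.25 and -0.27). On the 6 arrays, signals of Tet3 near 3.5 lie at the low end, and background per probe was not available to set a floor. Over all genes, fits on the compared groups alone called 549 against 1602 at NP, 50 against 231 at TN and 436 against 780 for TN minus NP of the genotype difference. Array weights called 3430 against 1842 at ES and 1537 against 970 for NP minus ES of that difference. Leaving out an array took the totals as low as 1190 at ES, 872 at NP, 117 at TN and 498 for TN minus NP. Testing every probe set, which tests more features, called 350 at TN, 19801 and 20240 for NP minus ES in RESTko and RESTwt (13165 and 13375 as reported), 22461 and 23578 for TN minus NP in RESTko and REST-carrying cells (14147 and 14570), and 13013 and 18980 in the mixed strain (7071 and 9242).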
